A study of Mus musculus with 24 samples.

Results

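Toxic and cholestatic injury of the wild-type mouse liver were compared directly, 3 livers after carbon tetrachloride (CCl4, arrays N24, N25 and N26) against 3 livers after bile duct ligation (BDL, arrays N04, N05 and N06). These are 6 of the 24 arrays of the series, chosen by their labels alone, and the comparison covers all 21144 genes whose probe set carries a single gene symbol. All animals were labelled as males of 8 to 10 weeks, and each array holds the whole-liver RNA of 1 mouse, with 3 mice per group. Wild-type mice carry both copies of N-Ras, the gene that is deleted in the other arm of the series. The CCl4 mice received the toxin in corn oil by repeated injection for 4 weeks, and their controls received corn oil alone (oil, N21, N22 and N23). The BDL mice were operated on and killed on day 28, and their controls underwent a sham operation (sham, N01, N02 and N03). Arrays are named in this order in every sentence below, and values are log2 signals.

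CCl4 is turned into a radical by cytochrome P450 enzymes of the hepatocytes around the central vein, and repeated doses kill these cells and leave scars between central veins. Ligation of the common bile duct blocks the outflow of bile, so that bile acids build up in the liver, the bile ducts multiply and scars form around the portal tracts. Both are standard models of liver fibrosis, and they reach it from opposite ends of the liver lobule.

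The 2 injuries come from separate experiments with array numbers of their own, so injury and experiment cannot be told apart in the direct comparison. The labels name no batch. The 6 arrays had medians of 5.6 to 5.69 and correlated at 0.9835 to 0.9899 within a group and at 0.9697 to 0.9743 between the injuries. The uninjured controls differed in treatment too, oil injection against sham operation, so they do not isolate the difference between the experiments. Between oil and sham, limma called 0 genes, with 632 higher in oil and 844 higher in sham at an unadjusted p under 0.05. With sham N02 left out, 252 genes were called. The methods' t-test gave 0 genes for these controls after adjustment and 1178 before it. Sham arrays N01 and N03 go against their label of males. Their mean over 4 Y-linked genes was 3.59 and 3.19, against 7.87 in sham N02 and 7.25 to 8.25 in the CCl4, BDL and oil arrays. The main results that rest on sham are therefore also given without these 2 arrays. Because sham is mixed in this way, 0 calls between oil and sham do not show that the experiments were alike. Albumin and the other hepatocyte secretory markers, which define the tissue, averaged 12.82 to 12.96 in the 6 livers, and 0 of 13 differed between the injuries. These values lie near the highest signals of the arrays (13.34 to 13.58), so 0 calls do not show equal hepatocyte content. With 3 livers on each side the smallest two-sided p of an exact permutation test is 0.1, so all p values below come from limma, adjusted over all genes, with a gene called at an adjusted p under 0.05. The ± values are standard errors of the fitted difference with n = 3 per group. They rest on a spread per gene that the 4 wild-type groups share, sham N01 and N03 included. They are therefore not the spread of the 6 injured livers alone.

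Of the 21144 genes, 859 (4.06%) were higher after CCl4 and 1230 (5.82%) were higher after BDL. A fold of at least 2 was reached by 321 and 427 of them. The 3 CCl4 and 3 BDL arrays did not overlap for 5316 genes, of which 2049 were also called. The median difference over all genes was 0.01 on the log2 scale, and the extremes were 31.9-fold higher after CCl4 for Hspb1 and 41.1-fold higher after BDL for Cyp2c38. Without N25, 1261 genes were called. With the methods' t-test, which takes its spread from the 6 arrays alone, 35 genes passed after adjustment and 3627 before it.

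Each injury was also set against the control of its own experiment. Against oil, 1678 genes (7.94%) rose and 1487 (7.03%) fell after CCl4. Against sham, 906 (4.28%) rose and 536 (2.53%) fell after BDL, and 442 genes in all were called without N01 and N03. Among the 859 genes higher after CCl4, 487 (56.7%) had risen after CCl4 with no call after BDL, 66 had fallen after BDL only and 206 had no call against either control. Among the 1230 genes higher after BDL, 538 (43.7%) had fallen after CCl4 only, 214 (17.4%) had risen after BDL only and 387 (31.5%) had no call in either. A call after CCl4 alone was thus the largest class on both sides. The injuries also shared much. After both, 467 genes rose, which is 27.8% of the rises after CCl4 and 51.5% of those after BDL, and 291 genes fell. Opposite calls were few, with 7 genes up after CCl4 and down after BDL and 17 the other way. Without N01 and N03, which leaves sham with the single array N02, 177 genes rose and 100 fell after both, 1 and 5 had opposite calls, and the classes after CCl4 only held 523 and 577 genes. In whole liver, fewer cells of a type and less RNA per cell cannot be told apart in any of these values.

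**Figure D1:**
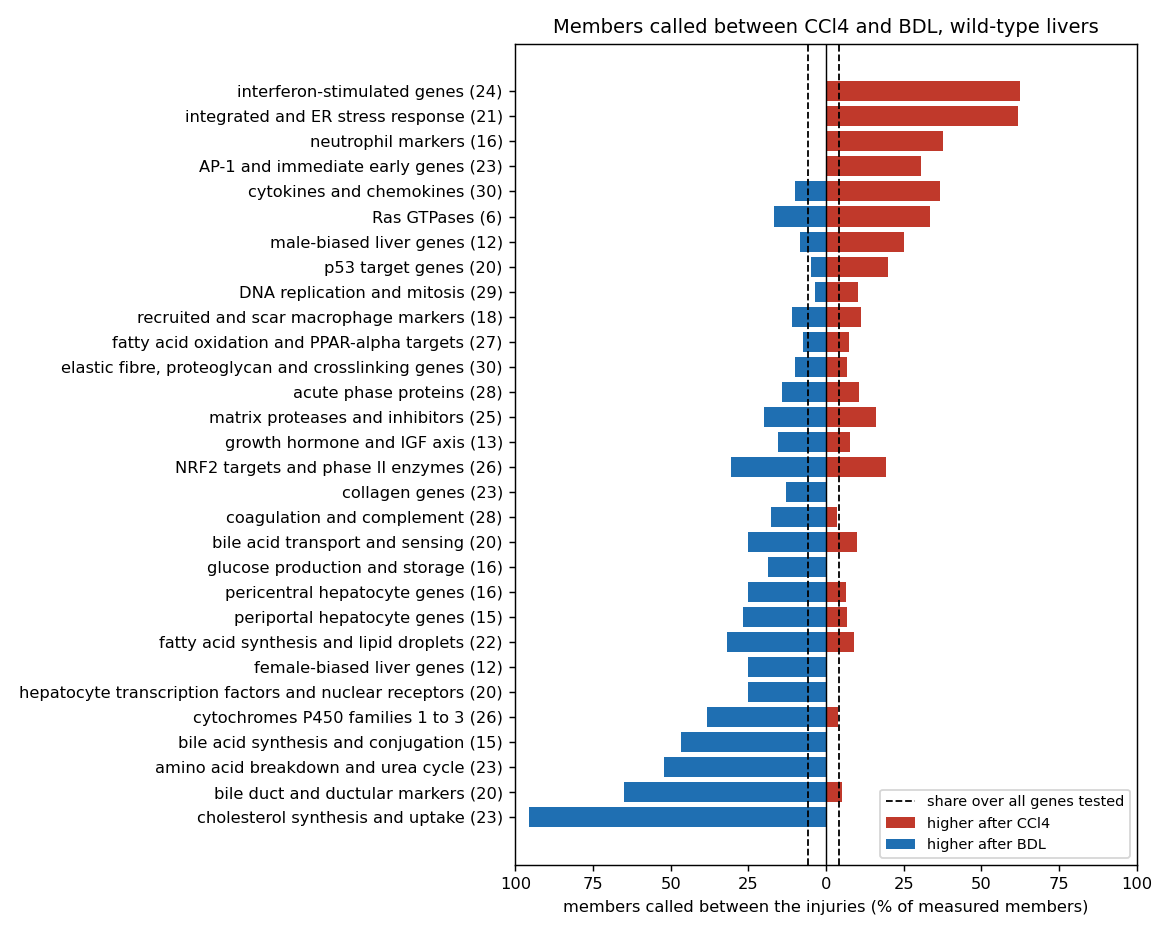
Share of the measured members of each gene list called between the injuries, in percent, with members higher after CCl4 to the right and members higher after BDL to the left; lists with at least 3 called members are shown. The dashed lines mark 4.06% and 5.82%, the shares over all 21144 genes, and the cholesterol list reaches 22 of 23 members on the BDL side.

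Cholesterol synthesis was the gene group with the most uniform difference. Of 23 measured genes for cholesterol synthesis and uptake, 22 were higher after BDL and 0 were higher after CCl4, with a median log2 difference of -1.88 against 0.01 over all genes. The arrays of all 22 did not overlap, which also held for 2049 of all 2089 called genes and so adds little to the calls. Idi1, the isomerase that makes the activated isoprene unit, read 5.58, 6.55 and 5.85 in the CCl4 livers and 10.30, 10.88 and 9.83 in the BDL livers, which is 20.3-fold lower after CCl4 (log2 difference -4.34 ± 0.28, adjusted p = 4.40e-07). The CCl4 livers were lowest of the 4 groups, for oil read 9.71, 9.40 and 10.01 and sham 9.52, 9.70 and 10.13. Hmgcs1, the synthase at the entry of the mevalonate pathway, read 9.47, 9.39 and 9.19 in the CCl4 livers and 12.07, 12.47 and 11.71 in the BDL livers and was 6.67-fold lower after CCl4 (log2 difference -2.74 ± 0.19, adjusted p = 7.51e-07). The BDL livers lay above sham (11.38, 11.14 and 11.56), and the CCl4 livers lay below oil (11.37, 11.26 and 11.65). Nsdhl, Cyp51 and Msmo1 remove methyl groups from lanosterol late in the pathway. Nsdhl was 7.14-fold lower after CCl4 (adjusted p = 3.39e-07), Cyp51 6.1-fold (adjusted p = 7.53e-07) and Msmo1 3.94-fold (adjusted p = 5.08e-06).

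The other members had the same sign. Some of them are named here after their values were seen, because their roles make the pathway readable. Sqle, which oxidizes squalene, was 5.2-fold lower after CCl4, and Srebf2, which encodes the transcription factor of the pathway, had a log2 difference of -1.06. Ebp, a sterol isomerase, was the member that did not pass, at -0.35 (adjusted p = 0.225). Averaged over the list, the arrays read 7.89 to 8.10 after CCl4, 9.57 to 10.11 after BDL, 9.61 to 9.85 in oil and 9.55 to 9.62 in sham. BDL overlapped with both controls, whereas every CCl4 array lay below every array of the other groups. The median change from sham after BDL was 0.55, and 18 of 23 members lay above sham. Against oil, 22 of 23 members fell after CCl4. Against sham, 4 rose and 1 fell after BDL, and 0 were called without N01 and N03. The change from control differed between the injuries for 19 members, and for 17 without N01 and N03. Over 22 other settings the count of members higher after BDL stayed at 21 to 22, while the methods' t-test called 0 of them after adjustment.

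**Figure D2:**
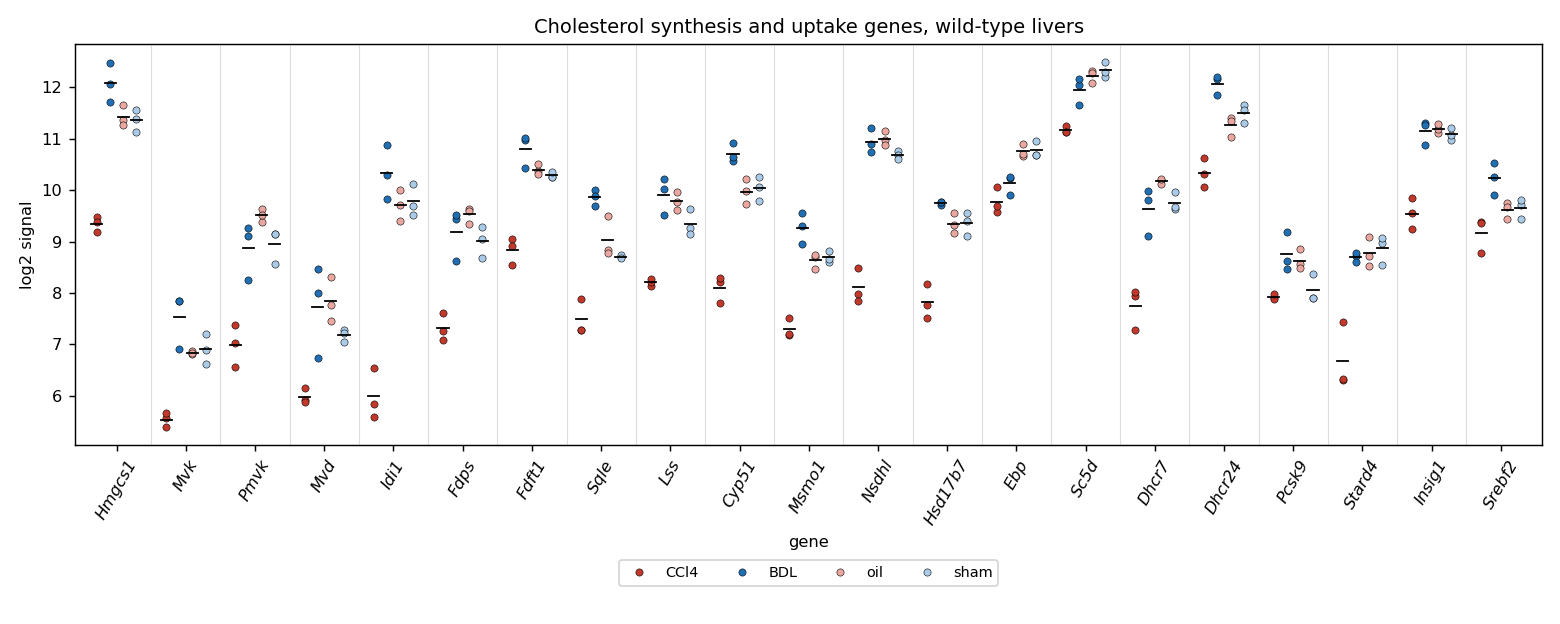
Log2 signal of genes of the cholesterol list in each array of the 4 wild-type groups, with 1 point per mouse and the group mean as a black line. The CCl4 points sit below the BDL points without overlap for every gene shown except Ebp, and Idi1 has the widest gap, 20.3-fold.

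The promoter of Hmgcs1 is printed because it was the single one among the cholesterol genes with the sterol regulatory element as searched. The window is 300 bases around the RefSeq start site, at chr13:119690101-119690400 on the plus strand of GRCm38.p6, and capitals mark the match to TCACNCCAC, at -137 from the start site. Both strands were searched. Of 15 members with a promoter entry, 1 held it (6.67%), against 1.44% of the promoters of all 16214 genes matched. The letters are a strict form of the element, and a window without them is not a promoter without the factor.
Hmgcs1: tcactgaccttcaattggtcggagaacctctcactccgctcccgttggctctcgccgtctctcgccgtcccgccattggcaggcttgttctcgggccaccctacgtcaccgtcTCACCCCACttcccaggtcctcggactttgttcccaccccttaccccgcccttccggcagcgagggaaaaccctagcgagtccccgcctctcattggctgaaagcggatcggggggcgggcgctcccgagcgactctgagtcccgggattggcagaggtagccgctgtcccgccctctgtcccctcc

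Genes of bile acid synthesis were lower after CCl4 as well. Of 15 measured genes of bile acid synthesis and conjugation, 7 were higher after BDL and 0 were higher after CCl4, with a median of -0.37. Cyp7a1, the rate-limiting enzyme of the classical pathway, read 5.54, 5.64 and 6.0 in the CCl4 livers and 10.50, 10.06 and 9.53 in the BDL livers, a 19.7-fold lower level after CCl4 (log2 difference -4.30 ± 0.39, adjusted p = 7.82e-06). Oil read 9.78, 10.00 and 10.96 and sham 11.81, 10.05 and 10.74. So the CCl4 livers lay far below every other array, while the BDL livers overlapped with oil and sham (BDL minus sham -0.84, adjusted p = 0.26, and -0.02 without N01 and N03). Akr1d1, the reductase that sets the bile acid ring shape, was 5.34-fold lower after CCl4 (log2 difference -2.42 ± 0.30, adjusted p = 0.000129), and Baat, which joins bile acids to amino acids, was 2.46-fold lower (log2 difference -1.30 ± 0.21, adjusted p = 0.00127). Cyp27a1 of the acidic pathway differed by 1.65-fold, and it also fell after BDL (log2 -0.52, adjusted p = 0.0236, and -0.60 with adjusted p = 0.186 without N01 and N03). Against the controls, 11 members fell after CCl4 and 5 after BDL (3 without N01 and N03). The 7 calls dropped to 4 without N05, N25 or N26.

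Bile acid transporters moved in both directions. Of 20 measured genes of bile acid transport and sensing, 5 were higher after BDL, 2 were higher after CCl4 and the median was -0.20. Slc51b is a subunit of the exporter that returns bile acids to blood. It read 5.56, 4.19 and 4.24 in the CCl4 livers and 7.34, 7.78 and 6.71 in the BDL livers, with oil at 4.83, 4.72 and 4.50 and sham at 4.27, 5.25 and 5.05. The BDL livers alone were raised (6.12-fold above CCl4, log2 difference -2.61 ± 0.35, adjusted p = 0.000271), and this held against N02 alone (log2 2.03, adjusted p = 0.0404). Abcc3 and Abcc4 are efflux pumps of the same blood-facing membrane, and they went opposite ways. Abcc3 read 9.77, 9.84 and 9.94 in the CCl4 livers and 11.44, 11.58 and 11.58 in the BDL livers and was 3.21-fold higher after BDL (log2 difference -1.68 ± 0.13, adjusted p = 1.77e-06). Abcc4 read 8.56, 8.74 and 8.71 in the CCl4 livers and 7.07, 6.71 and 7.02 in the BDL livers and was 3.33-fold higher after CCl4 (log2 difference 1.74 ± 0.15, adjusted p = 6.56e-06). Neither gene overlapped between the injuries. Slco1a1 and Slco1a4 take up organic anions from blood and were also opposed. Slco1a1 read 8.79, 8.47 and 8.71 in the CCl4 livers and 3.71, 4.38 and 5.61 in the BDL livers with oil at 11.11, 10.99 and 11.28 and sham at 10.02, 11.29 and 9.33. It fell after both injuries (against N02 alone, log2 -6.72 after BDL), and further after BDL, which left it 17.0-fold higher after CCl4 (log2 difference 4.09 ± 0.44, adjusted p = 4.13e-05). Slco1a4 read 7.54, 7.2 and 7.99 in the CCl4 livers and 10.66, 10.51 and 10.98 in the BDL livers and was 8.81-fold lower after CCl4 (log2 difference -3.14 ± 0.33, adjusted p = 3.84e-05), but sham N01 and N03 (10.56, 9.36 and 10.84 over the 3 sham arrays) lay as high as BDL.

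Genes of the bile duct lining were higher after BDL. Of 20 bile duct and ductular markers, 13 were higher after BDL, 1 was higher after CCl4 and the median was -1.31. Krt19, a keratin of duct cells, read 3.99, 4.38 and 4.67 in the CCl4 livers and 6.64, 5.51 and 5.44 in the BDL livers (2.86-fold, log2 difference -1.51 ± 0.28, adjusted p = 0.00282). Spp1, the secreted matrix protein osteopontin made by duct cells and macrophages, read 8.81, 9.91 and 8.65 in the CCl4 livers and 10.63, 11.58 and 10.95 in the BDL livers, with oil at 7.78, 7.52 and 7.10 and sham at 7.90, 7.13 and 7.59. It rose after both injuries (against N02 alone, log2 3.93 after BDL) and was 3.81-fold higher after BDL (log2 difference -1.93 ± 0.32, adjusted p = 0.00148). Tspan8, Prom1 and Cldn7, which encode membrane proteins of duct and other epithelia, were 4.79-, 2.78- and 1.76-fold higher after BDL, and their arrays did not overlap. The exception was Sox9, a transcription factor of duct and progenitor cells, named after its value was seen. It read 9.99, 10.36 and 10.22 in the CCl4 livers and 9.60, 8.78 and 8.21 in the BDL livers and rose against the control after both injuries (log2 2.35 and 1.88, the latter 1.16 with adjusted p = 0.179 without N01 and N03), with a 2.51-fold higher level after CCl4 (log2 difference 1.33 ± 0.34, adjusted p = 0.0235). This call was lost without N05, N06, N25 or N26. Averaged over the list, the arrays read 5.26 to 5.35 after CCl4, 5.90 to 6.99 after BDL, 4.86 to 4.95 in oil and 4.81 to 5.0 in sham, so both injuries stood above their controls and BDL stood highest. Against sham 14 members rose after BDL (5 without N01 and N03), and against oil 4 rose after CCl4. Many of these probe sets are dim. The 13 calls fell to 3 when values under 32 on the linear scale were raised to 32, to 6 when dim genes were left out and to 8 without N25. The duct markers moved with the other genes that were higher after BDL, and their part in those was not tested.

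**Figure D3:**
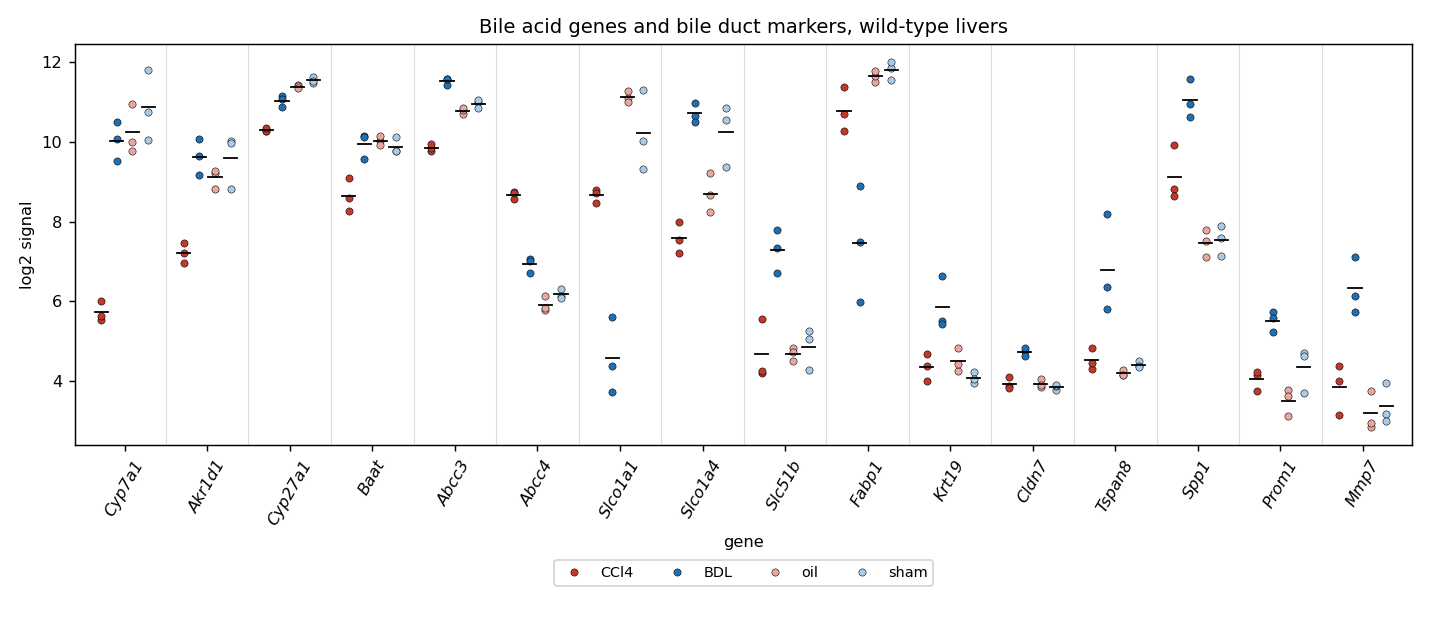
Log2 signal of bile acid genes, transporters, Fabp1 and bile duct markers in each array of the 4 wild-type groups, with 1 point per mouse and the mean as a black line. Cyp7a1 is low in the CCl4 arrays only (5.54, 5.64 and 6.0), and Slc51b is high in the BDL arrays only (7.34, 7.78 and 6.71).

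Several of the genes with the largest excess after BDL belonged to no list of bile genes. Sult1e1, the estrogen sulfotransferase, read 5.71, 5.03 and 4.95 in the CCl4 livers and 9.67, 7.91 and 10.47 in the BDL livers, with oil at 3.48, 3.21 and 4.29 and sham at 3.80, 3.25 and 3.63. Every injured liver lay above every control, and BDL stood 17.4-fold above CCl4 (log2 difference -4.12 ± 0.47, adjusted p = 7.49e-05). Serpinb6b, an inhibitor of serine proteases, read 5.22, 5.02 and 5.47 in the CCl4 livers and 8.71, 9.68 and 9.18 in the BDL livers and was 15.5-fold higher after BDL (log2 difference -3.95 ± 0.24, adjusted p = 2.68e-07). Lrtm2, a leucine-rich membrane protein, read 3.97, 3.46 and 4.04 in the CCl4 livers and 7.65, 7.03 and 7.14 in the BDL livers (10.9-fold, log2 difference -3.45 ± 0.19, adjusted p = 1.59e-07). For both genes the CCl4 livers lay near oil and the BDL livers rose against sham, also with N02 as the single sham array (log2 4.08 and 3.10). Cib3, a calcium-binding protein, was 18.7-fold higher after BDL (log2 difference -4.23 ± 0.54, adjusted p = 0.00016). Rcan2, a regulator of the phosphatase calcineurin, read 3.78, 4.41 and 4.15 in the CCl4 livers and 8.01, 7.68 and 7.33 in the BDL livers, and here it was CCl4 that fell (log2 -2.64 against oil) while the BDL livers overlapped with sham. Pros1, the anticoagulant protein S, was 3.07-fold higher after BDL (log2 difference -1.62 ± 0.18, adjusted p = 4.76e-05).

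The 15 largest differences on the CCl4 side included stress genes as well as Sult2a8, Slco1a1, Elovl3, Mup21, Fabp1 and Car3, hepatocyte genes that fell after BDL. Hspb1, the small heat shock protein HSP27, had the largest difference of all genes on the CCl4 side. It read 11.49, 11.85 and 11.37 in the CCl4 livers and 6.96, 6.27 and 6.5 in the BDL livers, with oil at 7.67, 8.31 and 8.20 and sham at 7.04, 7.92 and 6.69 (31.9-fold, log2 difference 5.0 ± 0.28, adjusted p = 1.66e-07). The CCl4 livers stood alone at the top, and BDL overlapped with sham. Sprr1a, a small proline-rich protein of epithelial stress, read 9.15, 9.61 and 9.52 in the CCl4 livers and 5.37, 6.25 and 5.0 in the BDL livers and was 14.8-fold higher after CCl4 (log2 difference 3.89 ± 0.26, adjusted p = 5.04e-07). Its controls were at 3.63, 3.47 and 3.21 in oil and 3.89, 3.47 and 3.30 in sham, so that it rose after both injuries (log2 5.99 and 1.99, the latter 2.06 against N02 alone). Dusp5, the phosphatase that switches off ERK in the nucleus, read 9.68, 10.11 and 10.39 in the CCl4 livers and 7.06, 6.44 and 6.49 in the BDL livers and was 10.6-fold higher after CCl4 (log2 difference 3.40 ± 0.21, adjusted p = 3.39e-07). BDL was not called against sham for Dusp5 (log2 0.42, adjusted p = 0.328). Tnfrsf23, a decoy receptor of the death ligand TRAIL, was 13.7-fold higher after CCl4 (log2 difference 3.78 ± 0.33, adjusted p = 6.56e-06), and Hid1 was 8.88-fold higher (log2 difference 3.15 ± 0.15, adjusted p = 5.55e-08).

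In the integrated stress response, cells short of amino acids or with unfolded proteins slow their translation and turn on targets of ATF4 and CHOP. Of 21 measured genes of integrated and ER stress, 13 were higher after CCl4 and 0 were higher after BDL, with a median of 0.92. Psat1 and Phgdh encode enzymes of serine synthesis. Psat1 had the widest difference of the list and read 9.07, 9.72 and 9.45 in the CCl4 livers and 5.58, 5.09 and 4.58 in the BDL livers (20.1-fold, log2 difference 4.33 ± 0.31, adjusted p = 7.65e-07), and Phgdh was 4.37-fold higher (log2 difference 2.13 ± 0.18, adjusted p = 3.44e-06). Nupr1, a stress-induced chromatin protein, read 9.63, 10.14 and 10.64 in the CCl4 livers and 7.37, 6.69 and 6.54 in the BDL livers (9.67-fold, log2 difference 3.27 ± 0.27, adjusted p = 3.44e-06). Ddit3, which encodes CHOP, read 9.36, 9.05 and 9.67 in the CCl4 livers and 7.91, 7.01 and 7.30 in the BDL livers (3.86-fold, log2 difference 1.95 ± 0.22, adjusted p = 5.25e-05). For these 4 genes the BDL livers overlapped with the controls, and the CCl4 livers did not overlap with any other group. Chac1, which degrades glutathione, was 2.32-fold higher after CCl4. Derl3, a gene of the disposal of misfolded proteins that stands on none of the lists, was 9.04-fold higher (log2 difference 3.18 ± 0.38, adjusted p = 0.000111). Averaged over the list, arrays read 8.66 to 8.85 after CCl4, 7.45 to 7.71 after BDL, 7.62 to 7.89 in oil and 7.44 to 7.81 in sham. Against oil 11 members rose after CCl4, and against sham 0 rose and 1 fell after BDL (0 and 0 without N01 and N03). The 13 calls fell to 6 with the floor of 32 and to 7 without N25.

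The promoter of Nupr1 is shown as the strongest of the 7 stress genes whose promoter held TGATGNAAN, a form of the composite site that ATF4 binds. It lies at chr7:126625421-126625720 on the minus strand of GRCm38.p6 (RefSeq), read in the direction of the gene, and the capitals mark the match on the opposite strand, at -111 from the start site. Of 20 members with a promoter entry, 7 held the letters on either strand (35%), against 3.89% of all 16214.
Nupr1: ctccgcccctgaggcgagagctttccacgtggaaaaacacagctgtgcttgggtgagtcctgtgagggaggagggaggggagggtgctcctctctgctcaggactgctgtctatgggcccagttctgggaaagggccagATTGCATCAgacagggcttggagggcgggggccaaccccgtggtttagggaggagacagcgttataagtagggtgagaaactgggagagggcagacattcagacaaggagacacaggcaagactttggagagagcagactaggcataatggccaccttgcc

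Immediate early genes had the same direction. Of 23 AP-1 and immediate early genes, 7 were higher after CCl4, 0 were higher after BDL and the median was 0.77. Atf3, a stress-induced partner of AP-1, read 9.84, 10.15 and 10.30 in the CCl4 livers and 7.86, 7.07 and 7.21 in the BDL livers, with oil at 5.77, 6.09 and 5.69 and sham at 5.44, 5.83 and 5.73 (6.58-fold, log2 difference 2.72 ± 0.21, adjusted p = 1.70e-06). Fosl1, the AP-1 subunit FRA-1, read 8.44, 9.31 and 9.02 in the CCl4 livers and 6.73, 6.65 and 6.41 in the BDL livers (5.01-fold, log2 difference 2.32 ± 0.21, adjusted p = 7.93e-06). Atf3 rose after both injuries (log2 4.25 and 1.72, the latter 1.55 against N02 alone), whereas Fosl1 rose after CCl4 and was not called after BDL (adjusted p = 0.66). Maff, Myc and Egr2, transcription factors of the early response, were 4.83-, 2.58- and 2.54-fold higher after CCl4, and the call of Myc was lost without N05, N25 or N26. Against controls, 14 members rose after CCl4 and 8 after BDL (3 without N01 and N03). The 7 calls became 11 without N01 and N03 or without N02, and 4 with the floor of 32 or without N05, N25 or N26. The palindrome TGANTCA, the core that AP-1 binds, was found in 0 of 18 promoters of the list and in 8.24% of all 16214.

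Genes of the antioxidant and conjugating systems split between the injuries. Of 26 measured NRF2 targets and phase II enzymes, 5 were higher after CCl4 and 8 were higher after BDL. On the CCl4 side, Slc7a11, which imports cystine for glutathione, read 8.88, 9.01 and 8.84 in the CCl4 livers and 6.08, 5.89 and 6.02 in the BDL livers (7.52-fold, log2 difference 2.91 ± 0.19, adjusted p = 4.56e-07), and Srxn1, which repairs oxidized peroxiredoxins, read 11.39, 11.34 and 11.21 in the CCl4 livers and 8.93, 9.26 and 8.53 in the BDL livers (5.3-fold, log2 difference 2.40 ± 0.20, adjusted p = 3.44e-06). Srxn1 rose after both injuries (log2 3.63 and 1.26, the latter 1.11 with adjusted p = 0.0583 without N01 and N03). On the BDL side were conjugating enzymes and Nqo1, a quinone reductase and classic NRF2 target, named after its value was seen (3.72-fold, log2 difference -1.89 ± 0.21, adjusted p = 6.68e-05). Gstm3, a glutathione transferase, read 9.77, 9.92 and 9.29 in the CCl4 livers and 11.58, 12.39 and 12.11 in the BDL livers (5.15-fold, log2 difference -2.36 ± 0.24, adjusted p = 2.88e-05), and Gstm2 and the sulfotransferase Sult1a1 were 3.31- and 3.36-fold higher after BDL. Gstm genes are close copies, and their probe sets may share signal. Gstm3 moved in opposite directions, down after CCl4 and up after BDL (log2 -0.97 and 1.42, the latter 1.10 with adjusted p = 0.144 without N01 and N03). Sult2a8, a hepatocyte sulfotransferase for bile acids in the mouse, read 10.25, 10.07 and 10.84 in the CCl4 livers and 5.24, 5.54 and 8.00 in the BDL livers, with oil at 11.86, 11.82 and 12.12 and sham at 11.80, 11.82 and 11.94. It fell after both injuries (against N02 alone, log2 -5.56 after BDL) and further after BDL (log2 difference 4.12 ± 0.49, adjusted p = 0.000103).

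**Figure D4:**
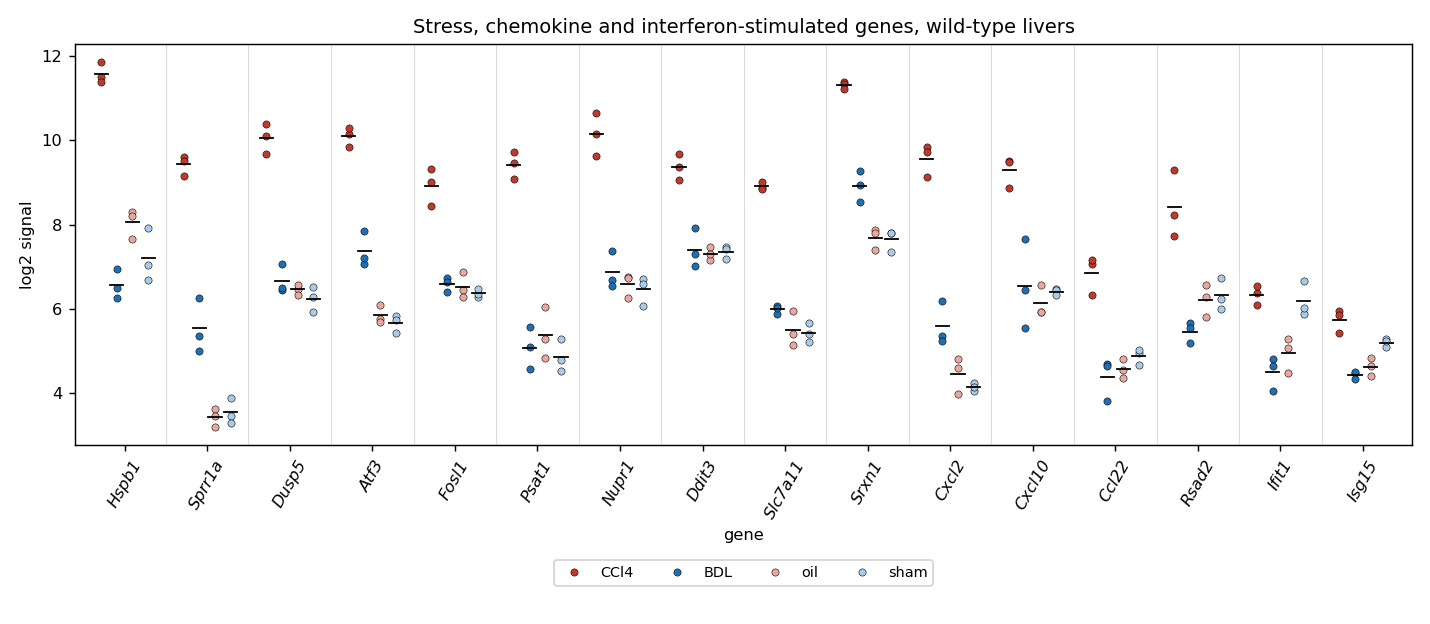
Log2 signal of stress, chemokine and interferon-stimulated genes in each array of the 4 wild-type groups, with 1 point per mouse and the mean as a black line. The CCl4 points stand above the BDL points for every gene shown, from 2.46-fold for Isg15 to 31.9-fold for Hspb1.

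Cytokines and chemokines were called in both directions. Of 30 measured cytokines and chemokines, 11 were higher after CCl4, 3 were higher after BDL and the median was 0.38. Cxcl2, a chemokine that draws neutrophils, read 9.14, 9.83 and 9.72 in the CCl4 livers and 6.20, 5.35 and 5.25 in the BDL livers, with oil at 3.98, 4.81 and 4.61 and sham at 4.25, 4.06 and 4.14 (15.6-fold, log2 difference 3.96 ± 0.26, adjusted p = 4.88e-07). Cxcl10, induced by interferon, read 8.86, 9.50 and 9.49 in the CCl4 livers and 7.66, 6.44 and 5.55 in the BDL livers (6.64-fold, log2 difference 2.73 ± 0.38, adjusted p = 0.000335), and Ccl22, which draws regulatory T cells, was 5.5-fold higher (log2 difference 2.46 ± 0.25, adjusted p = 2.88e-05). Il1rn, the antagonist of the interleukin-1 receptor, was 4.52-fold higher (log2 difference 2.17 ± 0.33, adjusted p = 0.000779). The 3 genes higher after BDL, named after their values were seen, were Cxcl14 (2.84-fold, log2 difference -1.51 ± 0.33, adjusted p = 0.00861), Cxcl5, a chemokine for neutrophils (2.57-fold, log2 difference -1.36 ± 0.29, adjusted p = 0.00701), and Cxcl16 (1.52-fold, log2 difference -0.60 ± 0.18, adjusted p = 0.0496). Cxcl13, which draws B cells, read 7.65, 7.67 and 7.81 in the CCl4 livers and 5.57, 4.88 and 4.43 in the BDL livers with sham at 7.71, 6.80 and 6.87. For this gene it was BDL that fell (log2 -2.17 against sham, and -1.84 against N02 alone, adjusted p = 0.0301). Markers of neutrophils moved with the chemokines. Of 16, 6 were higher after CCl4 and 0 after BDL, their mean was 5.69 to 6.02 after CCl4, 5.07 to 5.30 after BDL, 4.66 to 4.91 in oil and 4.42 to 4.92 in sham, and their part in the chemokine values was not tested. Clec4e, a receptor for dead cells, was 3.23-fold and S100a9, a granulocyte calprotectin subunit, 2.36-fold higher after CCl4, and the call of S100a9 was lost without N05, N24 or N25. The 6 neutrophil calls fell to 2 with the floor of 32 and without N05 or N25, and to 3 without N04. Over 22 other settings, the count of cytokine and chemokine genes was 9 to 12 on the CCl4 side and 0 to 3 on the BDL side.

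Interferon-stimulated genes were higher after CCl4. Of 24 such genes, 15 were higher after CCl4 and 0 were higher after BDL, with a median of 0.88. Rsad2, the antiviral enzyme viperin, read 7.73, 9.29 and 8.24 in the CCl4 livers and 5.20, 5.66 and 5.54 in the BDL livers, with oil at 5.82, 6.57 and 6.28 and sham at 6.23, 6.73 and 6.01 (7.75-fold, log2 difference 2.95 ± 0.32, adjusted p = 4.39e-05). Ifit1, which binds viral RNA, read 6.39, 6.54 and 6.10 in the CCl4 livers and 4.06, 4.81 and 4.64 in the BDL livers, with oil at 4.49, 5.29 and 5.07 and sham at 6.66, 5.88 and 6.03 (3.59-fold, log2 difference 1.84 ± 0.25, adjusted p = 0.000316). The CCl4 livers lay above oil for both genes, and the BDL livers lay below every sham array, a difference from sham that was called for Ifit1 (adjusted p = 0.000729, and 0.0503 without N01 and N03) and not for Rsad2 (adjusted p = 0.143). Isg15, a ubiquitin-like protein, was 2.46-fold higher after CCl4 (log2 difference 1.30 ± 0.16, adjusted p = 0.00016). Averaged over the list, arrays read 7.05 to 7.47 after CCl4, 6.19 to 6.29 after BDL, 6.16 to 6.58 in oil and 6.70 to 6.89 in sham. Against oil 12 members rose after CCl4. Against sham 8 fell after BDL, and 0 were called without N01 and N03. Likewise the change from control differed for 12 members, and for 4 without these arrays. The 15 calls fell to 8 with the floor of 32 and to 9 without N25. Of 16 markers of T and NK cells, 1 was higher after CCl4 (Ccl5, also a chemokine, 2.93-fold), near the share over all genes (4.06%). The list had array means of 4.63 to 4.82 after CCl4 and 4.55 to 4.62 after BDL.

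The promoters of Ifit1 and Rsad2 are shown because both carry the interferon-stimulated response element and stand among the 3 widest differences of the list. Ifit1 lies at chr19:34640639-34640938 on the plus strand and Rsad2 at chr12:26456403-26456702 on the minus strand of GRCm38.p6 (RefSeq), each read in the direction of its gene. Capitals mark TTTC followed by any 2 bases and TTTC again, searched on both strands. Of 19 members with a promoter entry, 13 held it (68.4%), against 3.84% of all 16214, and the first match lay at -104 in Ifit1 and at -120 in Rsad2.
Ifit1: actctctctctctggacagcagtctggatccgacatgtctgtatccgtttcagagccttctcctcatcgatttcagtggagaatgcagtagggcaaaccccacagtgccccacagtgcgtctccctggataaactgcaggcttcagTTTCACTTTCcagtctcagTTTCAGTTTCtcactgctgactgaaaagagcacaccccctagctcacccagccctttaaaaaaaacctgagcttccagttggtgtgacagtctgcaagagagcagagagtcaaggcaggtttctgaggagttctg
Rsad2: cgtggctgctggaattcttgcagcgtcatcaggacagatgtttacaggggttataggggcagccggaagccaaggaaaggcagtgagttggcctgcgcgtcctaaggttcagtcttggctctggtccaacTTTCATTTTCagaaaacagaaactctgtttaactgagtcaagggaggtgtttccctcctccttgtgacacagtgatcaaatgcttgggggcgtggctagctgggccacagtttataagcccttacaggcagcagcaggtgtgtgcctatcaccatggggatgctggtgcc

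Genes of drug metabolism were lower after CCl4. Of 26 measured cytochromes P450 of families 1 to 3, 10 were higher after BDL and 1 was higher after CCl4. The shares over all genes were 5.82% and 4.06%, so the 1 call toward CCl4 is near background. Against the controls 12 fell and 2 rose after CCl4, and 6 fell and 1 rose after BDL, with N01 and N03 in sham. Cyp2c38, with the largest difference on the BDL side, read 4.19, 4.2 and 5.20 in the CCl4 livers and 9.96, 10.05 and 9.67 in the BDL livers, with oil at 9.04, 9.16 and 9.68 and sham at 10.86, 9.36 and 10.96 (41.1-fold lower after CCl4, log2 difference -5.36 ± 0.36, adjusted p = 5.04e-07). The CCl4 livers alone were low. Cyp2c50 read 7.61, 8.70 and 9.33 in the CCl4 livers and 11.04, 11.42 and 11.28 in the BDL livers and was 6.5-fold lower after CCl4 (log2 difference -2.70 ± 0.35, adjusted p = 0.000212). Cyp2c genes are close copies of each other, and their probe sets may share signal. Cyp2f2, an enzyme of periportal hepatocytes, was the 1 member called on the CCl4 side, 1.9-fold higher (log2 difference 0.93 ± 0.23, adjusted p = 0.0192). Its call was lost with the floor of 32 and without N04, N24 or N26. Cyp2b10 had the largest difference toward CCl4 in the list (log2 difference 1.98). It was not called in the main fit, whose spread includes sham N01 and N03. Nr1i3 and Nr1i2, the receptors CAR and PXR that switch on P450 genes, were 3.78- and 2.05-fold lower after CCl4, and Ahr, the receptor of dioxins, was 2.29-fold lower. Of 20 hepatocyte transcription factors and nuclear receptors, 5 were higher after BDL and 0 after CCl4, which became 2 with the floor of 32 and 3 without N04, N25 or N26.

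Between the injuries, pericentral and periportal genes gave the same counts, but against the controls they did not. Of 16 measured pericentral genes 4 were higher after BDL and 1 was higher after CCl4, and of 15 periportal genes the counts were again 4 and 1. The shares over all genes were 5.82% and 4.06%, so 1 call toward CCl4 is near background. Against the controls, 9 pericentral genes fell and 1 rose after CCl4, and 6 fell and 2 rose after BDL (medians -0.78 and -0.76). Of the periportal genes, 1 fell and 1 rose after CCl4, and 2 fell and 0 rose after BDL (medians -0.16 and -0.09). Over all genes 7.03% fell after CCl4 and 2.53% after BDL. The BDL counts rest on all 3 sham arrays, N01 and N03 included. Slc1a2, a glutamate transporter of pericentral cells, read 5.97, 5.98 and 6.38 in the CCl4 livers and 8.32, 8.48 and 9.27 in the BDL livers, with oil at 9.44, 9.34 and 9.72 and sham at 10.61, 9.15 and 10.32. It fell after both injuries, after BDL not without N01 and N03 (log2 -0.46, adjusted p = 0.632), and was 5.97-fold lower after CCl4 (log2 difference -2.58 ± 0.32, adjusted p = 0.00013). Oat, ornithine aminotransferase of the same cells, was 4.05-fold lower (log2 difference -2.02 ± 0.36, adjusted p = 0.00244). On the periportal side Asl and Arg1, enzymes of the urea cycle, were 2.02- and 1.67-fold lower after CCl4. Of 23 genes of amino acid breakdown and the urea cycle, 12 were higher after BDL and 0 were higher after CCl4, with a median of -0.48. Cth, which makes cysteine from cystathionine, read 10.54, 10.14 and 10.78 in the CCl4 livers and 12.02, 11.93 and 12 in the BDL livers (2.83-fold lower after CCl4, log2 difference -1.50 ± 0.18, adjusted p = 0.000104), and Bhmt, which returns homocysteine to methionine, was 1.79-fold lower (log2 difference -0.84 ± 0.16, adjusted p = 0.00336).

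Genes of fat synthesis were also lower after CCl4, in fewer of their members. Of 22 measured genes of fatty acid synthesis and lipid droplets, 7 were higher after BDL and 2 were higher after CCl4. Thrsp, a lipogenic regulator, read 7.26, 6.84 and 7.30 in the CCl4 livers and 9.32, 9.25 and 9.13 in the BDL livers, with oil at 11.58, 10.92 and 11.76 and sham at 11.11, 10.83 and 11.31. It fell after both injuries (against N02 alone, log2 -1.60 after BDL) and further after CCl4 (4.29-fold, log2 difference -2.10 ± 0.21, adjusted p = 2.15e-05). Gpam, the first enzyme of triglyceride assembly, and Elovl6, a fatty acid elongase, were 3.31- and 2.4-fold lower after CCl4. Against controls 13 members fell after CCl4 and 7 after BDL (3 without N01 and N03). In contrast, fatty acid oxidation gave 2 genes in each direction of 27, against 4.06% of all genes higher after CCl4 and 5.82% higher after BDL. Fabp1, the main fatty acid carrier of hepatocytes, read 10.71, 10.27 and 11.37 in the CCl4 livers and 5.97, 8.90 and 7.49 in the BDL livers, with oil at 11.51, 11.66 and 11.78 and sham at 11.86, 11.56 and 12. The BDL livers were low and uneven, with N04 lowest, and the difference was 10.0-fold (log2 difference 3.33 ± 0.49, adjusted p = 0.000626). Car3, an abundant hepatocyte carbonic anhydrase, was again low in BDL, at 11.08, 10.60 and 10.53 in the CCl4 livers and 6.24, 8.22 and 8.33 in the BDL livers (8.81-fold, log2 difference 3.14 ± 0.39, adjusted p = 0.00014). Cd36, a fatty acid importer, was 3.1-fold higher after BDL (log2 difference -1.63 ± 0.33, adjusted p = 0.00549).

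Most markers of recruited and scar macrophages rose after both injuries. Of 18 markers of recruited and scar macrophages, 15 rose after CCl4 and 14 after BDL (12 without N01 and N03), and 2 differed in each direction between the injuries. Lgals3 (galectin-3) and Mmp12 (macrophage elastase) were 3.9- and 3.3-fold higher after CCl4, while Cx3cr1, the fractalkine receptor, was 2.41-fold higher after BDL. The Mmp12 call was lost without N25 or N26, and that of Cx3cr1 without N04, N05 or N24. The 11 Kupffer cell markers gave 0 calls between the injuries with a median of -0.41. There were also 0 calls among 21 genes of the TGF-beta pathway and 18 sinusoidal endothelial markers. The same held for 15 portal fibroblast and mesothelial markers and 9 genes of MHC class II. Of 17 stellate cell and myofibroblast markers 1 was called, Ngfr, the p75 neurotrophin receptor, 1.72-fold higher after CCl4. That count is near the share of all genes higher after CCl4 (4.06%). Against the controls 2 of these 17 rose and 1 fell after CCl4, and 4 rose and 1 fell after BDL (1 and 0 without N01 and N03). Collagens gave 3 calls of 23 between the injuries, all higher after BDL. Against the controls 1 collagen rose and 2 fell after CCl4, and 6 rose and 0 fell after BDL (1 and 0 without N01 and N03). Col3a1, fibrillar collagen III, read 5.99, 7.2 and 6.82 in the CCl4 livers and 9.06, 8.16 and 7.17 in the BDL livers (2.75-fold, log2 difference -1.46 ± 0.38, adjusted p = 0.0223), with a wide spread among the BDL livers. The 3 collagen calls fell to 0 without N04, N05 or N26 and to 1 without N24, and became 5 without N06. Lum, the collagen-binding proteoglycan lumican, read 6.72, 6.73 and 6.96 in the CCl4 livers and 8.45, 8.07 and 7.81 in the BDL livers and was 2.47-fold higher after BDL (log2 difference -1.31 ± 0.26, adjusted p = 0.00481).

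Matrix proteases differed by enzyme. Of 25 proteases and inhibitors, 4 were higher after CCl4 and 5 were higher after BDL. Mmp13, the interstitial collagenase of the mouse, read 6.25, 7.82 and 7.21 in the CCl4 livers and 4.16, 3.94 and 4.21 in the BDL livers, with oil at 3.99, 3.90 and 3.55 and sham at 3.73, 4.24 and 4.11. It was raised in the CCl4 livers alone (7.94-fold, log2 difference 2.99 ± 0.29, adjusted p = 1.62e-05). Mmp7, matrilysin of epithelial cells, read 3.15, 4.00 and 4.37 in the CCl4 livers and 7.11, 5.73 and 6.14 in the BDL livers, with oil at 3.75, 2.85 and 2.95 and sham at 3.94, 3.17 and 2.99. It was raised in the BDL livers (5.6-fold, log2 difference -2.49 ± 0.37, adjusted p = 0.000711). Plaur, the urokinase receptor, was 4.12-fold higher after CCl4 (log2 difference 2.04 ± 0.25, adjusted p = 0.000113) and Timp4, an inhibitor, 2.35-fold higher after BDL, at signals under 5 in every array. Acute phase proteins rose after both injuries, 14 and 15 of 28 (13 and 4 without N01 and N03). Between the injuries 3 of 28 were higher after CCl4 and 4 were higher after BDL, with a median of -0.10, against 4.06% and 5.82% of all genes. Over 22 other settings these counts ran from 1 to 3 and from 1 to 4. Saa3, a serum amyloid made also outside hepatocytes, was 4.24-fold higher after CCl4 (log2 difference 2.08 ± 0.30, adjusted p = 0.000538). Orm3, an orosomucoid, was 12.3-fold higher after BDL (log2 difference -3.62 ± 0.62, adjusted p = 0.00197).

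Of 20 p53 targets, 4 were higher after CCl4 and 1 was higher after BDL, against 4.06% and 5.82% of all genes. Against the controls 10 rose after CCl4 and 2 after BDL (1 without N01 and N03). Eda2r, a receptor induced by p53, was 4.49-fold higher after CCl4 (log2 difference 2.17 ± 0.36, adjusted p = 0.00134), and Mdm2, the inhibitor of p53, 2.53-fold (log2 difference 1.34 ± 0.25, adjusted p = 0.00299). Of 29 genes of DNA replication and mitosis, 3 were higher after CCl4 and 1 was higher after BDL, again against 4.06% and 5.82% of all genes. Counts this small say little about the list. Ccne1 and Ccne2, the cyclins of entry into S phase, were 1.93- and 2.88-fold higher after CCl4, whereas Mki67, which marks cycling cells, read 3.79, 4.51 and 4.25 in the CCl4 livers and 4.85, 5.32 and 5.80 in the BDL livers, at the edge of the threshold (adjusted p = 0.0498) and with 6 of 21 other settings keeping the call.

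Sex-biased liver genes differed, although the Y-linked signal was high in all 6 livers. Of 12 male-biased genes, 3 were higher after CCl4 and 1 was higher after BDL, and their mean was 8.93 to 9.37 after CCl4, 7.13 to 7.84 after BDL and 10.77 to 11.01 in oil. Of 12 female-biased genes, 3 were higher after BDL and 0 after CCl4, with means of 5.51 to 5.81 after CCl4, 6.45 to 7.0 after BDL and 5.77 to 6.27 in oil. When N01 and N03 were left out of the fit, 7 male-biased genes were higher after CCl4 and 5 female-biased genes were higher after BDL. Sham ran from 7.68 to 10.98 and from 6.16 to 11.05, since N01 and N03 stood apart from N02. Elovl3, a male-biased elongase, read 7.79, 7.40 and 8.00 in the CCl4 livers and 3.08, 4.54 and 3.57 in the BDL livers, with oil at 11.64, 11.75 and 11.66 and sham at 5.93, 11.89 and 6.25. The difference was 16.0-fold (log2 difference 4.00 ± 1.05, adjusted p = 0.0241), and its call was lost without N04, N06, N24, N25 or N26. With N01 and N03 out of the fit its adjusted p was 1.83e-06. Slc22a26, an organic anion transporter, read 5.35, 5.6 and 5.41 in the CCl4 livers and 9.66, 8.88 and 10.22 in the BDL livers, with oil at 5.87, 5.79 and 6.19 and sham at 11.64, 5.68 and 11.42. The CCl4 livers lay at the level of N02, below every BDL liver, and sham N01 and N03 lay above BDL. The difference was 17.6-fold (log2 difference -4.13 ± 1.05, adjusted p = 0.0205), and its call was lost without the same arrays as that of Elovl3, with an adjusted p of 9.34e-07 when N01 and N03 were left out. Mup21, a male-biased urinary protein of a family of near copies, read 11.98, 11.79 and 12.04 in the CCl4 livers and 7.27, 8.76 and 9.79 in the BDL livers (10.1-fold, log2 difference 3.33 ± 0.41, adjusted p = 0.00013).

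Of the 6 Ras genes, the family of the gene deleted in the other arm, 2 were higher after CCl4 and 1 was higher after BDL. Nras itself read 7.5, 8.04 and 7.49 in the CCl4 livers and 6.89, 7.43 and 6.49 in the BDL livers, with oil at 5.92, 6.30 and 6.91 and sham at 6.54, 6.41 and 6.16. It rose after CCl4 (log2 1.30, adjusted p = 0.00367), and the injuries did not differ by the threshold (log2 difference 0.74 ± 0.26, adjusted p = 0.0975). Hras had a log2 difference of -0.00 (adjusted p = 0.998). Mras read 6.55, 6.61 and 6.55 in the CCl4 livers and 5.77, 5.37 and 5.50 in the BDL livers (2.03-fold higher after CCl4, log2 difference 1.02 ± 0.20, adjusted p = 0.00449), Rras2 was 1.65-fold higher after CCl4 (log2 difference 0.72 ± 0.15, adjusted p = 0.00701) and Rras was 2.2-fold higher after BDL (log2 difference -1.14 ± 0.17, adjusted p = 0.000698).

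Setting each injury against the control of its own experiment removes a constant difference between the experiments, at the cost of a wider error and of the sham arrays. For this double difference, CCl4 minus oil less BDL minus sham, 256 genes (1.21%) were called toward CCl4 and 248 (1.17%) toward BDL. Of these 504, 483 were also called directly with the same sign and 21 were not. In turn, most direct calls were not called in the double difference. It called 244 (28.4%) of the 859 genes higher after CCl4 and 239 (19.4%) of the 1230 higher after BDL. Of the direct calls the double difference had the same sign for 859 of 859 and for 1226 of 1230, a share that the shared injured arrays make high. The difference between oil and sham had the same sign and reached at least 0.5 of the size for 49 (5.70%) and 99 (8.05%) of the direct calls. Without N01 and N03, 230 genes were called. Idi1 (-4.27 ± 0.40 on the log2 scale, adjusted p = 5.52e-05), Hspb1 (4.15 ± 0.40, 5.52e-05) and Serpinb6b (-4.26 ± 0.34, 1.54e-05) kept their direction and call, also without these arrays (-4.35, 4.85 and -3.92). Cyp2b10, a P450 induced through CAR, had the largest value on the CCl4 side (5.38, adjusted p = 0.0328), but sham read 10.89, 6.43 and 11.18 and the call was lost without N01 and N03 (adjusted p = 0.0968). Of the 20 genes with the largest double differences, 10 on each side, 3 others lost their call without these arrays, Susd4 (-1.47, adjusted p = 0.174), Fabp1 (3.24, adjusted p = 0.125) and Sult2a8 (4.01, adjusted p = 0.0509).

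**Figure D5:**
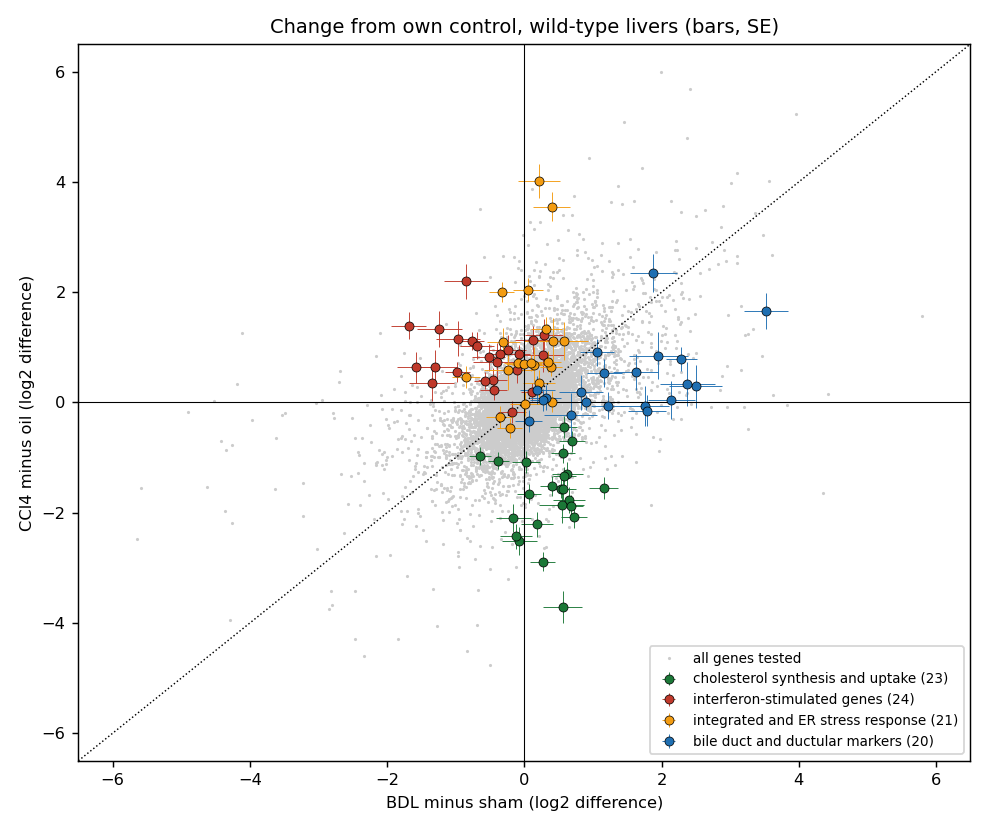
Change from the own control of each gene in log2 units, BDL minus sham on the horizontal axis and CCl4 minus oil on the vertical axis, with all 21144 genes in grey, members of 4 lists in colour with standard errors, and a dotted line where both changes are equal. Cholesterol genes lie below 0 for CCl4 (22 of 23 fell) and mostly above 0 for BDL (18 of 23, median 0.55, of which 4 were called). Duct markers lie to the right (14 of 20 rose after BDL).

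The same 2 injuries were given to NRAS-/- mice, 3 livers each, and the difference between the injuries was tested against that in the wild type. Here 628 genes (2.97%) had a larger value of CCl4 minus BDL in the wild type and 977 (4.62%) a smaller one. Of the wild-type calls, 747 (87%) of the genes higher after CCl4 and 1004 (81.6%) of those higher after BDL had the same sign in the NRAS-/- livers. The cholesterol list had a median of -1.95 there, and 22 of 22 called members kept their sign. For duct markers the median was -1.23 and 14 of 14 kept their sign, and for interferon-stimulated genes it was 1.36 with 14 of 15. By contrast the chemokine list had a median of -0.12 in the NRAS-/- livers against 0.38 in the wild type, with 7 members called for the difference, and bile acid synthesis had -1.40 against -0.37, with 6 called. Cyp7a1 was lower after CCl4 by a log2 difference of -6.10 in NRAS-/- livers and -4.30 in the wild type (difference 1.79, adjusted p = 0.0304). Cxcl2 was 2.04 there and 3.96 in the wild type (difference 1.92, adjusted p = 0.0131).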

How the data were processed

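Whole-liver RNA of 24 mice, 1 array each, was measured on Affymetrix mouse gene arrays. The 12 wild-type arrays (3 mice each after CCl4, oil, BDL and sham) entered the main fit. The difference between genotypes was fitted on all 24 arrays. The deposited values are log2 signals per probe set as the authors processed them. The submitters' processing notes name MAS5, and the summarisation and normalization steps are not given in the sources used here. The label kit and the label field of the samples name different dyes or tags. A deposited table of linear signal group means equals the mean of 2 raised to the log2 values (largest relative difference 1.1e-15) and was used for that check only. Its columns of ratios and p-values, deposited by the authors, hold their own comparisons and were not used.

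Of 22206 probe sets, 21367 had 1 gene symbol, 836 had several and 3 had none. The brightest was kept for the 143 genes with more than 1, giving 21144 genes, and 883 symbols were updated (20543 match GRCm38.p6). Probe sets of close gene families (Cyp2c, Gstm, Mup, Slc22a, Sult2a, Serpinb6) may share signal. limma (3.58.1, R 4.3.3) fitted the 4 wild-type groups, or all 24 arrays for the difference between genotypes, with Benjamini-Hochberg adjustment over all genes. Values were read with pandas 2.3.3, numpy 2.4.6 and Python 3.11.15 and version 1.17.8 of data.table and drawn with matplotlib 3.10.9. The fit was tested on simulated data. Alternatives were the arrays in the fit, the sham arrays used, normalization, array weights, the averaging of probe sets, a linear floor of 32, a filter on dim genes, eBayes with trend and robust fit, a fold of at least 2, the methods' t-test (two-tailed, equal variances) and each wild-type array left out in turn.

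The 48 lists (844 of 873 members measured), the motifs and the tests were chosen with earlier results of these data known. Named were the 15 largest called, non-overlapping differences in each direction, up to 5 members of each list by adjusted p, the 10 largest called double differences in each direction, and all Ras, Y-linked and hepatocyte secretory genes. Genes outside this rule are said to be so. The number of arrays, 3 per group, limits the precision. Some genes are not reported here.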

Additional observations from a re-analysis of the deposited data

Results flagged for a closer look

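For 37 of the named genes the difference between CCl4 and BDL itself differed between wild-type and NRAS-/- livers in limma (adjusted p under 0.05, 3 livers per group). Each value is the log2 difference CCl4 minus BDL of the wild type less that of NRAS-/-, and the background share of genes with such a call is 2.97% above 0 and 4.62% below 0. Most named genes were chosen by their wild-type values, and the same wild-type arrays enter this difference. That choice favours a smaller size in NRAS-/-, so the shares over all genes are not a like background for the 37.

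In 11 genes the mean difference had the opposite sign in NRAS-/- livers, and whether it was reversed there was not tested. That NRAS-/- difference ran from -0.79 for S100a9 to 1.23 for Ppara. It was small for Pfkfb1 (0.06), Arg1 (0.09) and C8g (-0.10), among others. The value of wild type less NRAS-/- was 3.52 for Car3, 2.45 for Eda2r, 2.29 for Il1rn, 2.02 for S100a9 and 1.59 for Slc1a4. It was 1.23 for Ngfr, 0.62 for C8g, -0.83 for Arg1, -1.53 for Pfkfb1 and -1.56 for Foxo1. It was -2.14 for Ppara.

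In 9 genes the sign was the same and the size larger in NRAS-/- livers. The value was 2.50 for Akr1d1, 2.28 for Bhmt, 1.79 for Cyp7a1, 1.25 for Elovl6 and 1.23 for Gstm2. It was 1.21 for Asl, 1.19 for Slc13a3, 0.82 for Fads1 and 0.81 for Slc2a2.

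In 17 genes the sign was the same and the size smaller in NRAS-/- livers. The value was 2.56 for Slco1a1, 2.55 for Sprr1a, 2.50 for Hspb1, 2.49 for Tcf24 and 2.06 for Sult2a8. It was 1.97 for Cxcl10, 1.92 for Cxcl2, 1.81 for Dusp5, 1.68 for Clec4e and 1.65 for Lgals3. It was 1.60 for Abcc4, 1.38 for Ccl22, 1.27 for Ddit3, 1.19 for Fosl1 and 1.14 for Ccl5. It was 0.74 for Hid1 and -0.96 for Timp4.

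Ppara, the nuclear receptor of fatty acid oxidation, had a CCl4 minus BDL difference of -0.91 in the wild type and 1.23 in NRAS-/-, and Car3 one of 3.14 and -0.38. Hspb1 and Sprr1a were 5.0 and 3.89 in the wild type and 2.50 and 1.34 in NRAS-/-, while Akr1d1, Bhmt and Cyp7a1 were -2.42, -0.84 and -4.30 against -4.92, -3.12 and -6.10.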

How the results depend on the processing

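Between CCl4 and BDL, 2089 genes were called, 748 with a fold of at least 2 as well, 35 with the methods' t-test after adjustment and 3627 before it, and 1261 (without N25) to 2214 (without N02) with 1 wild-type array left out. Calls on the CCl4 side were 41.1% of these, and 45.7% after quantile normalization. For the double difference, 504 genes became 230 without N01 and N03, 214 with the floor of 32, and 295 (without N25) to 648 (without N02) with 1 array left out, with 316 without N03 and 312 without N23. For CCl4 against oil, 3165 genes became 1089 with the fold, 462 and 4945 with the methods' t-test after and before adjustment, and 1929 (without N25) to 3335 (without N06). Centring each array on its median moved the share of rises among these calls from 53% to 43.8%. For BDL against sham, 1442 genes became 442 without N01 and N03, 816 with the floor, 659 with the fold, 16 and 3108 with the methods' t-test, and 818 (without N01) to 1425 (without N02), with 932 without N03. For oil against sham, 0 genes became 1178 with the methods' t-test before adjustment and 0 to 252 (without N02) with 1 array left out. For the difference between genotypes, 1605 genes became 858 with the fold, 1166 with only the arrays of the groups compared, and 1108 (without N25) to 1635 (without N02). The cause of these shifts was not tested, and 0 of the called values of named genes and lists changed sign in the settings run.

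No paired analysis was possible because the groups share no replicate numbers. The number of livers, 3 per group, and dim probe sets limit the precision, and with the floor of 32 the 13 calls among duct markers became 3. Injury and experiment cannot be told apart in the direct comparison, and the double difference rests on sham arrays of which N01 and N03 go against their label.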
